A study of Drosophila melanogaster with 10 samples.

Results

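The small interfering RNA (siRNA) and microRNA (miRNA) machinery of fly cells was followed here through 8 genes, AGO2, Dcr-2, r2d2, AGO1, Dcr-1, loqs, pasha and drosha, chosen by name. All 8 were among the 13984 gene names measured, and all 8 passed the filter of a mean of at least 1 RPKM, which left 7690 names. RPKM counts reads relative to transcript length and to library size. The cells were ovarian somatic cells (OSC), a cultured line from the somatic part of the Drosophila melanogaster ovary, which silence transposable elements with PIWI-interacting RNAs (piRNAs). Poly(A) RNA was sequenced 2 days after transfection with an siRNA against EGFP, the control, or against Armi, Piwi, CG3893, Mael or HP1a, so the control cells had also received an siRNA. Each of these 6 groups held 1 library. Without replicates no test was possible, and the differences below describe these libraries.

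In flies, Dcr-2 cuts long double-stranded RNA into siRNAs and passes them, with its partner r2d2, to AGO2, which slices matching RNA. Primary miRNA transcripts are cropped in the nucleus by drosha with pasha, then cut in the cytoplasm by Dcr-1 with loqs, and the miRNAs are loaded mainly into AGO1, which represses their targets. The siRNA branch is known for defence against viruses and for restraining transposable elements in somatic tissue, next to the Dicer-independent piRNA pathway, whose factors Piwi, Armi, Mael and CG3893 were depleted in these cells. Transfected siRNAs such as those of the knock-downs are themselves used by AGO2 in fly cells.

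The library totals, recovered from the deposited transposable element values and not counted, lay between 18584526 reads, in HP1a, and 36729626 reads, in Piwi. Gene values may rest on slightly different totals. The RNA of each targeted gene stood between 10.3% of control, for mael, and 48.4% of control, for CG3893, in the library of its own knock-down. The follicle cell markers tj, Fas3 and zfh1 lay between 41.5 and 206 RPKM in the 6 libraries. In HP1a, Fas3 was at 107.9 RPKM against 41.5 in the control, tj at 150.9 against 194.8 and zfh1 at 113.7 against 130.2. The 6 germline markers vas, nos, aub, AGO3, bam and osk summed to between 3.87 and 4.20 RPKM in the control and the piRNA factor knock-downs and to 10.8 RPKM in HP1a, where vas stood at 6.38 against 1.56 RPKM in the control. Hml and Lsp2, markers of hemocytes and fat body, were at most 0.224 RPKM. Of the neuron and muscle markers, Syt1 was near 0, elav lay between 9.81 and 12.4 RPKM and Mhc between 4.32 and 6.13 RPKM.

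The 8 genes fell into a high tier, led by the siRNA branch, and a low tier. AGO2 had the highest level, with a mean of 208 RPKM over the 6 libraries, followed by Dcr-2 at 146, AGO1 at 69.8 and r2d2 at 38.98 RPKM. Dcr-1 at 16.0, drosha at 15.2, pasha at 13.6 and loqs at 12.6 RPKM made up the low tier. The highest mean was 16.4-fold above the lowest. AGO2, Dcr-2, AGO1 and r2d2 did not overlap with each other or with the low tier in any library. Within the low tier the order was less firm: Dcr-1 was above drosha in 4 of 6 libraries, and the 6-library ranges of drosha, pasha and loqs overlapped. In the control, AGO2 stood at percentile 94.7 and Dcr-2 at 92.6 of the 7690 gene names, AGO1 at 81.6 and r2d2 at 63.4. The low tier lay between percentile 29.9, for loqs, and 36.0, for Dcr-1, below the median gene, which was at 24.1 RPKM.

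**Figure D1:**
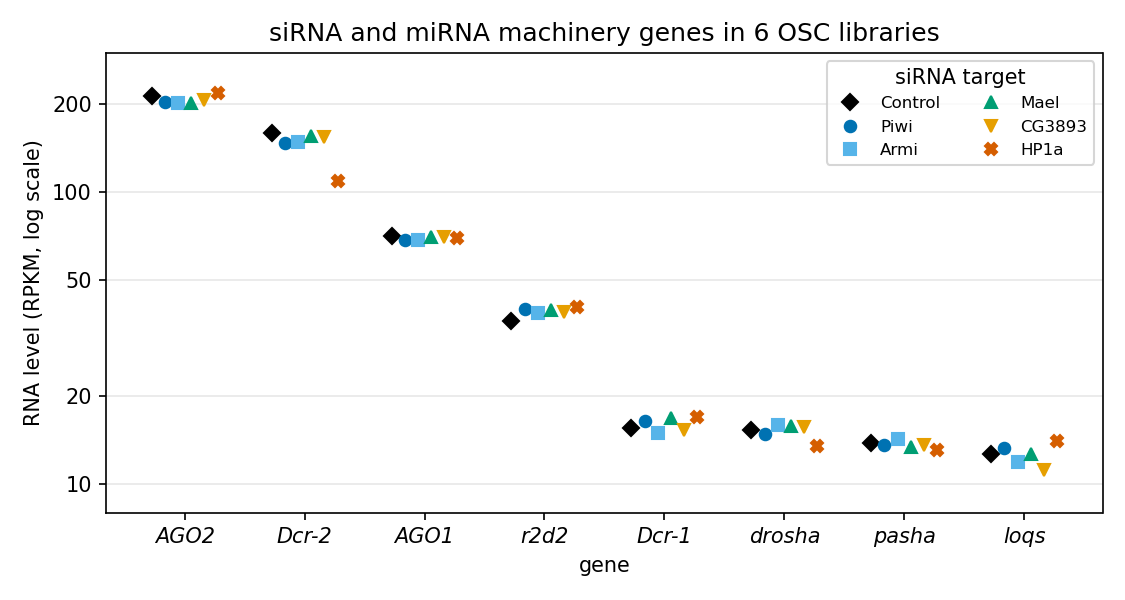
RNA level in RPKM (log scale) of the 8 genes, ordered by mean, in each of 6 libraries, 1 symbol per library, with no error bar as each group holds 1 library. AGO2, Dcr-2, AGO1 and r2d2 are separate from each other, the other 4 genes share a band from 11.2 to 16.9 RPKM, and the HP1a symbol of Dcr-2 lies below its other 5.

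AGO2, which encodes the siRNA slicer (arm 3L, positions 15547216 to 15554144 of build dm3), had 213 RPKM in the control, 202 in Armi, 203 in Piwi, 207 in CG3893, 202 in Mael and 219 in HP1a. These values kept within a 1.09-fold range. The 4 piRNA factor knock-downs were below the control and HP1a was above it. The median gene was also below the control in every knock-down. After upper quartile scaling the AGO2 log2 changes were -0.06 in Armi, -0.03 in Piwi, -0.01 in CG3893, -0.0028 in Mael and 0.13 in HP1a. The ratios to control ran from 0.945 in Mael to 1.03 in HP1a. The locus overlaps CG7739 by 313 positions, and CG7739 lay between 41.6 and 47.98 RPKM.

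Dcr-2, which encodes the siRNA-producing Dicer (2R, 13462483 to 13469011), had the widest range of the 8 over the 6 libraries, 1.45-fold. It stood at 159 RPKM in the control, 149 in Armi, 147 in Piwi, 155 in CG3893 and 156 in Mael, but at 109.6 RPKM in HP1a. The HP1a value was 0.689 of the control (0.655 to 0.726), and between 0.702 and 0.744 of the 4 other knock-downs, so it does not rest on the control library alone. The interval in parentheses is the 95% exact binomial interval on the reads that 1 kb of transcript would hold at these depths, and it covers counting error only. Transcript lengths were not used here, and a longer transcript holds more reads and gives a narrower interval, so which intervals reach 1 depends on this choice. The log2((knock-down + 1)/(control + 1)) change was -0.53, and -0.46 once changes were centred on the median gene of that library. In HP1a, 7.02% of all genes had a lower change than Dcr-2, and 14.6% were at least as far from 0 in either direction. The neighbouring gene Rab4, whose locus meets that of Dcr-2 over 2 positions, stood at 79.2 RPKM in the control and 78.8 in HP1a. The HP1a library also had the lowest recovered total, the highest germline marker sum, the highest Fas3 and the lowest tj level. The part of these in the Dcr-2 value was not tested.

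r2d2, which encodes the double-stranded RNA-binding partner of Dcr-2 (2L, 7800166 to 7802008), was lowest in the control, at 36.3 RPKM. It stood at 38.7 in Armi, 39.9 in Piwi, 38.9 in CG3893, 39.6 in Mael and 40.5 RPKM in HP1a. All 5 knock-downs were thus above the control, by 1.07-fold to 1.12-fold, also after centring on the median gene or scaling to the same upper quartile. The 5 comparisons share the control library, and among the knock-downs r2d2 kept between 38.7 and 40.5 RPKM. In HP1a r2d2 was at its highest, 1.12-fold above control (1.02 to 1.22), at 40.5 RPKM against 39.9 in Piwi. The intervals in Armi (0.975 to 1.16) and CG3893 (0.989 to 1.16) reached 1.

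AGO1, which encodes the miRNA-loaded Argonaute (2R, 9834046 to 9845594), was the steadiest of the 8 in the values as deposited. Its level was 70.9 RPKM in the control, 68.9 in Armi, 68.9 in Piwi, 70.3 in CG3893, 70.2 in Mael and 69.5 in HP1a. Its highest value was 1.03-fold its lowest, and 5 of the 6633 genes with a mean of at least 5 RPKM had a smaller ratio. Ratios to control lay between 0.972 and 0.992, and after centring on the median gene or scaling to the same upper quartile the changes in Mael, CG3893 and HP1a were on the other side of 0. With the upper quartile, log2 changes ran from -0.021 in Armi to 0.064 in Mael. Those of pasha then kept a narrower range, from 0.0089 in CG3893 to 0.067 in Armi. The rank among 6633 genes was not recomputed after scaling. The genes mRpL53 and CG33155 lie inside the AGO1 locus, at 63.3 to 73.1 and 5.70 to 9.85 RPKM, and reads of overlapping genes may be counted in either.

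Dcr-1, which encodes the miRNA-producing Dicer (3R, 18559726 to 18566752), was at 15.6 RPKM in the control, 15.0 in Armi, 16.5 in Piwi, 15.3 in CG3893, 16.8 in Mael and 16.9 in HP1a. Armi and CG3893 lay below the control and the other 3 above it, except that CG3893 was also above it, at a log2 change of 0.0015, after scaling to the same upper quartile. The HP1a ratio was 1.08, with an interval that reached 1, in the library where Dcr-2 was at 0.689 of control. loqs, which encodes the partner of Dcr-1 and, through another isoform, of Dcr-2 (2L, 13382647 to 13385671), varied more: 12.7 RPKM in the control, 11.9 in Armi, 13.3 in Piwi, 11.2 in CG3893, 12.7 in Mael and 14.1 in HP1a. CG3893 held the lowest value, at 0.883 of control (0.765 to 1.02), and HP1a the highest, at 1.11 (0.951 to 1.30). Both intervals reached 1. The deposited value sums the isoforms of loqs, so the forms that serve each Dicer cannot be told apart.

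In the nuclear pair, pasha varied 1.09-fold over the 6 libraries and drosha 1.18-fold. pasha, which encodes the RNA-binding partner of drosha (3R, 27443698 to 27447197), was at 13.8 RPKM in the control, 14.3 in Armi, 13.6 in Piwi, 13.6 in CG3893, 13.4 in Mael and 13.1 in HP1a. drosha, which encodes the RNase III enzyme of primary miRNAs (2R, 3819930 to 3824360), was at 15.3 RPKM in the control, 16.0 in Armi, 14.8 in Piwi, 15.7 in CG3893, 15.9 in Mael and 13.5 in HP1a. HP1a was the lowest library for both genes as deposited, but the pasha change in HP1a was on the other side of 0 after centring, as were those in Piwi and Mael. Its drosha ratio was 0.884 (0.757 to 1.03), an interval that reached 1.

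**Figure D2:**
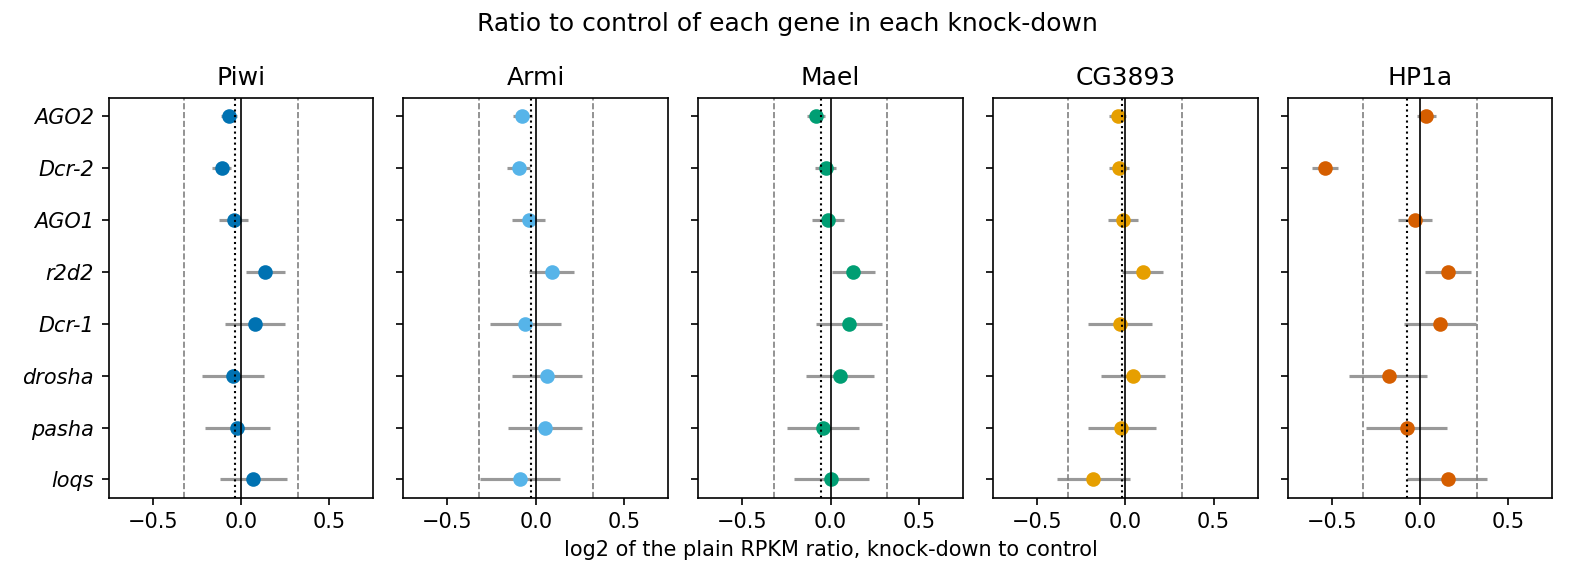
Log2 of the plain RPKM ratio of each knock-down to the control for the 8 genes, with grey bars for 95% intervals on the reads of 1 kb of transcript (counting error only), dashed lines at the smaller limit of 0.32 and a dotted line at the median log2(RPKM + 1) change of all genes. Dcr-2 in HP1a, at a ratio of 0.689, is the 1 point past a dashed line, and the other 39 lie between ratios of 0.883 and 1.12.

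Counted over the 5 knock-downs, 0 of the 8 genes were past 2-fold in any library on the log2(RPKM + 1) scale. Among all genes tested, the share past this limit was 1.40% in Armi, 2.03% in Piwi, 1.39% in CG3893, 3.22% in Mael and 5.75% in HP1a, so a count of 0 among 8 genes is near the background. A smaller limit, a log2 change of 0.32, was also used. Past it, 0 of 8 were higher in any knock-down, against 5.02% of all genes in Armi, 5.19% in Piwi, 5.16% in CG3893, 7.07% in Mael and 12.3% in HP1a. Past the smaller limit on the lower side there were 0 of 8 in Armi, Piwi, CG3893 and Mael, where 4.08%, 6.35%, 2.67% and 12.9% of all genes were. In HP1a there was 1 of 8, Dcr-2, against 19.2% of all genes, so the share of the 8 is near the background. Centring on the median gene moved the split of all genes to 15.7% higher and 13.1% lower in HP1a, to 8.92% higher and 9.10% lower in Mael and to 5.97% higher and 5.07% lower in Piwi. In HP1a and Piwi the higher side was then the larger, where the lower side was as deposited. The median log2 change of the 8 was -0.05 in Armi, -0.03 in Piwi, -0.02 in CG3893, 0.0048 in HP1a and -0.0045 in Mael. The median over all genes was -0.03 in Armi, -0.04 in Piwi, -0.02 in CG3893, -0.08 in HP1a and -0.05 in Mael.

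A kilobase of transcript held between 243 and 7467 reads over the 8 genes and 6 libraries, and with the reads of 1 kb 9 of the 40 intervals excluded a ratio of 1. These were AGO2 in Armi, Piwi and Mael, Dcr-2 in Armi, Piwi and HP1a, and r2d2 in Piwi, Mael and HP1a, genes of the higher tier, where intervals are narrowest. Dcr-2 stood at 0.927 of control in Piwi (0.892 to 0.963) and 0.935 in Armi (0.895 to 0.976). Apart from Dcr-2 in HP1a, these ratios lay within 1.12-fold of the control, and the spread between cultures of 1 group is not known. Intervals were computed for the 8 genes only, so no share of all genes stands beside the count of 9. They rest on values as deposited, and the count depends on that scaling. After centring on the median gene, the AGO2 log2 changes were -0.05 in Armi, -0.03 in Piwi, -0.03 in Mael and 0.11 in HP1a.

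The range of each gene over the 6 libraries was set against that of all genes. The ratio of highest to lowest RPKM was 1.03 for AGO1, 1.09 for AGO2, 1.09 for pasha, 1.12 for r2d2, 1.13 for Dcr-1, 1.18 for drosha, 1.26 for loqs and 1.45 for Dcr-2. The median of 6633 genes with a mean of at least 5 RPKM was 1.22, so 6 of the 8 were below the median gene and loqs and Dcr-2 above it. For Dcr-2, 82.9% of genes had a smaller ratio. Without the HP1a library the Dcr-2 ratio was 1.08, and 13.1% of genes had a smaller one. For drosha, 37.8% of genes had a smaller ratio than 1.18. Without HP1a the drosha ratio was also 1.08, with 13.1% of genes below it. Over the same 6 libraries the RNA of MDG1, a retrotransposon that the piRNA pathway restrains in these cells, varied 299-fold.

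**Figure D3:**
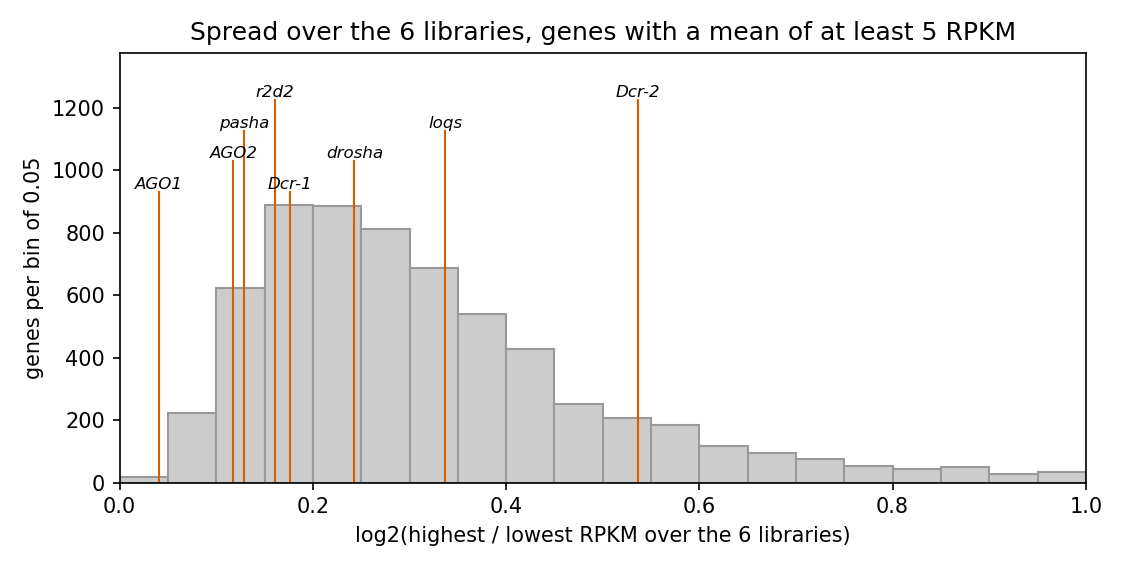
Number of genes by the log2 ratio of highest to lowest RPKM over the 6 libraries, for genes with a mean of at least 5 RPKM, with vertical lines at the 8 machinery genes. The axis ends at a ratio of 2, beyond which lie 403 of 6633 genes; AGO1 is at the left edge, and Dcr-2, at 1.45, is in the right part.

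Ratios between genes of matching function do not depend on how a library was scaled. The Argonaute ratio, AGO2 to AGO1, was 3.01 in the control, 2.94 in Armi, 2.95 in Piwi, 2.94 in CG3893, 2.87 in Mael and 3.14 in HP1a. The Dicer ratio, Dcr-2 to Dcr-1, was 10.2 in the control, 9.91 in Armi, 8.92 in Piwi, 10.1 in CG3893 and 9.28 in Mael, and 6.47 in HP1a, the lowest. The ratio of the RNA-binding partners, r2d2 to loqs, was 2.86 in the control, 3.25 in Armi, 3.00 in Piwi, 3.48 in CG3893, 3.12 in Mael and 2.87 in HP1a. HP1a lay next to the control here, as both partners were above control in it. The ratio of the nuclear pair, drosha to pasha, ran from 1.03 in HP1a to 1.19 in Mael, with drosha above pasha in all 6 libraries. The siRNA gene was thus above its miRNA counterpart in each library for the Argonautes, the Dicers and the Dicer partners.

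**Figure D4:**
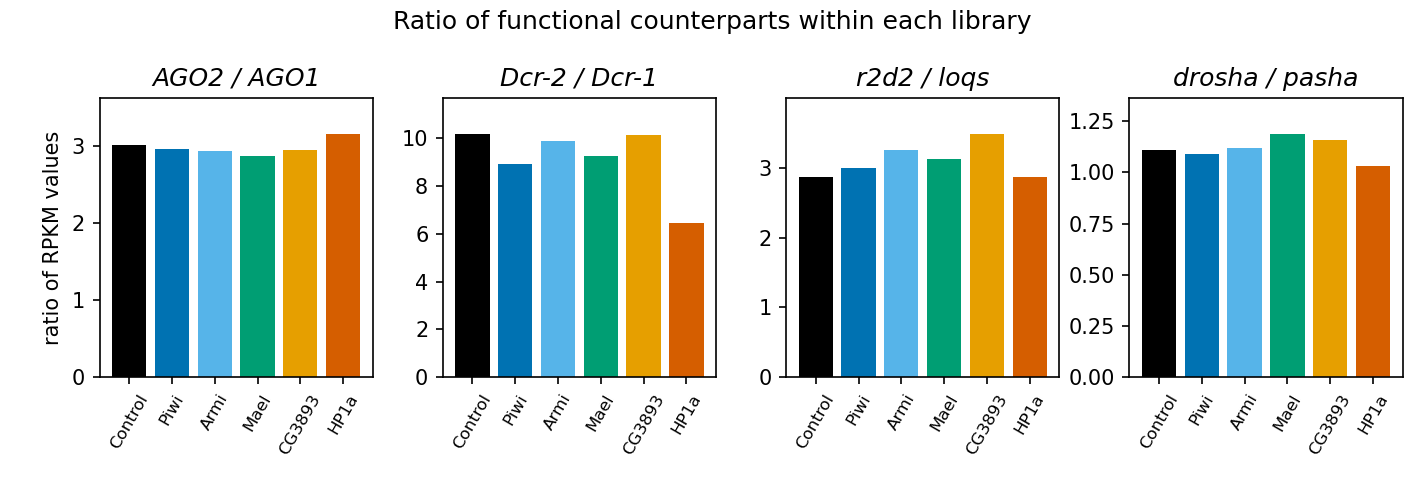
Ratio of RPKM values of functional counterparts in each of 6 libraries (1 bar per library, axes from 0, a separate axis for each pair). The Dcr-2 to Dcr-1 ratio is 6.47 in HP1a against 8.92 to 10.2 in the other libraries, while AGO2 to AGO1 stays between 2.87 and 3.14.

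Genes that work with the 8 were described from 2 lists of known partners. Of 12 siRNA pathway partners, 0 were past 2-fold in any knock-down and 0 past the smaller limit in Armi, Piwi, CG3893 or Mael. From 1.39% of all genes, in CG3893, to 5.75%, in HP1a, were past 2-fold. Past the smaller limit in those 4 knock-downs, 5.02% to 7.07% of all genes were higher and 2.67% to 12.9% lower. Counts of 0 among 12 genes are near these shares. In HP1a, 1 of the 12 was past the smaller limit on the higher side and 3 on the lower. The median log2 change of the list was -0.23, against -0.08 over all genes. After centring on the median gene, 2 of the 12 were higher and 0 lower. With 12.3% of all genes past this limit on the higher side and 19.2% on the lower, these counts are near the background. Hsp83, the Hsp90 chaperone that helps load siRNAs into AGO2, was at 1356 RPKM in the control, 1659 in Armi, 1349 in Piwi, 1545 in CG3893, 1455 in Mael and 1978 in HP1a, 1.46-fold above control. vig, which encodes a protein found with the AGO2 complex, went from 189 RPKM in the control to 143 in HP1a. CG16817, which encodes the co-chaperone p23, went from 881 to 680 RPKM, and trsn, which encodes a subunit of the nuclease that clears the passenger strand, from 87.7 to 69.8 RPKM.

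Of 17 miRNA pathway partners, 0 were past 2-fold. From 1.39% of all genes, in CG3893, to 5.75%, in HP1a, were past 2-fold, so this count is near the background. Ge-1, which encodes a scaffold of the decapping complex that acts on miRNA targets, was the 1 partner above the smaller limit, and it was so in each of the 5 knock-downs. In single knock-downs 5.02% to 12.3% of all genes were past that limit, so a count of 1 of 17 in each is near the background. The share of all genes past it in all 5 knock-downs was not counted. Ge-1 stood at 32.4 RPKM in the control, 41.1 in Armi, 47.4 in Piwi, 42.3 in CG3893, 53.4 in Mael and 43.4 in HP1a. All knock-downs were above the control, by 1.27-fold in Armi to 1.65-fold in Mael, and all 5 ratios divide by the same control library. Dcp1, which encodes a decapping cofactor, was the 1 partner past the smaller limit on the lower side, in HP1a, at 39.6 against 52.7 RPKM. Its levels in the other knock-downs lay between 44.1 and 48.9 RPKM. On that side 19.2% of all genes were past the limit in HP1a, so 1 of 17 is not above the background. In the other knock-downs 2.67% to 12.9% of all genes were past it. Dcp2, the decapping enzyme gene, was at 75.4 RPKM in the control and 63.6 in HP1a, a log2 change of -0.24. gw, which encodes the GW182 protein that AGO1 recruits, kept between 81.1 and 87.1 RPKM. The list's median log2 change lay between -0.10, in HP1a, and -0.05, in Armi.

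Genes known from antiviral responses, which the siRNA branch serves in flies, differed most in HP1a. Of 8 listed genes 6 passed the filter, and TotA and TotM were at 0 or near 0 in all libraries. In HP1a, 3 of the 6 were past 2-fold higher, against 3.85% of all genes, and 4 past the smaller limit, against 12.3%. The list was chosen with earlier results of these data known, so these shares are a description only. The shifts of Fas3, tj and the germline markers given above were in the same library, and their part in these values was not tested. The JAK/STAT ligand genes upd2 and upd3 went from 1.03 to 5.11 and from 1.18 to 4.69 RPKM, and the virus-induced gene vir-1 from 4.05 to 9.18 RPKM. Socs36E, a feedback inhibitor of that pathway, was at 24.8 RPKM in the control and 46.8 in HP1a. Vago, which encodes a secreted protein whose induction by virus needs Dcr-2, was at 227 RPKM in the control, 217 in Armi, 196 in Piwi, 204 in CG3893, 168 in Mael and 262 in HP1a. Mael held its lowest level and HP1a its highest. In Armi, upd2 and upd3 were at 2.24 and 2.21 RPKM, past the smaller limit, and in Piwi vir-1 was at 2.10 RPKM, past it on the lower side. Past the smaller limit there were 2 of 6 higher and 1 lower in Armi, 1 lower in Piwi, 2 lower in Mael and 0 in CG3893. The share of all genes was 5.02% higher and 4.08% lower in Armi, and on the lower side 6.35% in Piwi and 12.9% in Mael. In CG3893 that share was 5.16% higher and 2.67% lower.

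Among 12 genes of the piRNA pathway active in OSC, other than in the knock-down that targeted each gene, 0 were past 2-fold. From 1.39% of all genes, in CG3893, to 5.75%, in HP1a, were past 2-fold, so this count is near the background. In HP1a 7 of the 12 were past the smaller limit on the lower side and the median log2 change was -0.35, where the 8 siRNA and miRNA genes had a median of 0.0048; after centring 5 of the 12 were past it. Of all genes, 19.2% were past this limit on the lower side in HP1a, or 13.1% after centring, and the median change of all genes was -0.08. This list was also chosen with earlier results of these data known, so the shares are a description only. piwi itself was at 426 RPKM in HP1a against 576 in the control, and mael at 64.4 against 87.2 RPKM. zuc, the nuclease gene of piRNA biogenesis, was at 12.2 against 19.7 RPKM. The ratios of piwi and mael in HP1a, 0.738 and 0.739, and that of zuc, 0.62, lie on either side of the Dcr-2 ratio of 0.689.

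**Figure D5:**
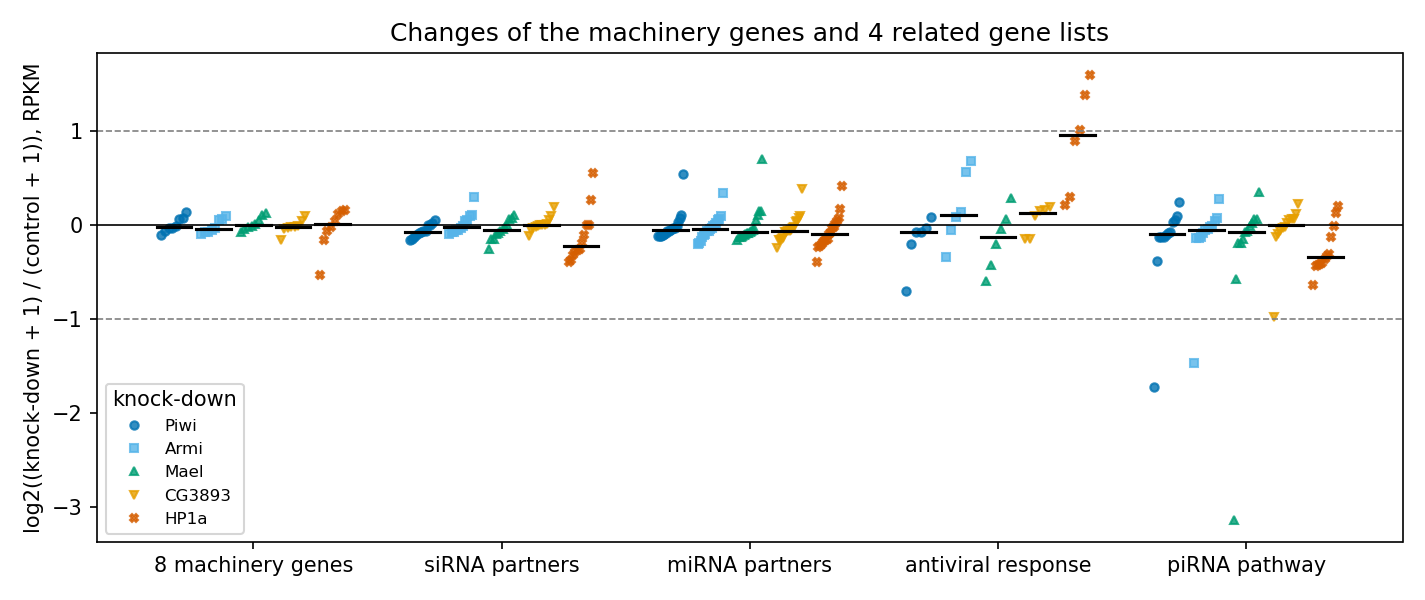
Log2((knock-down + 1)/(control + 1)) of RPKM for each gene of the 8 and of 4 related lists, in 5 knock-downs, with 1 symbol per gene, black bars at list medians and dashed lines at 2-fold. The 8 genes lie within 0.16 above and 0.53 below 0; the low outlying points of the piRNA list are the genes targeted by the knock-downs, and 3 antiviral genes are past 2-fold in HP1a.

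For each of the 8, the 3 genes with the most similar pattern were found by Pearson's r of log2(RPKM + 1) over the 6 libraries, among 6550 other genes. With 6 points from libraries that share their scaling, high values arise for many genes and are given as a description. Dcr-2 was closest to Fas1, dlg1 and CG31368 (r of 0.998, 0.997 and 0.995), and 414 genes had r of at least 0.9 with it. Fas1 went from 123 RPKM in the control to 80.0 in HP1a and dlg1 from 203 to 157, the same library in which Dcr-2 was low. As these genes were picked by likeness over all 6 libraries, a low HP1a value follows from the choice. Without HP1a, r with Dcr-2 was 0.965 for Fas1, 0.938 for dlg1 and 0.921 for CG31368. drosha was closest to Taf2, CG3511 and CG31169 (r of 0.998, 0.995 and 0.992), and pasha to Faf, CG9231 and CG3056 (0.998, 0.989 and 0.981).

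r2d2 was closest to Fas2, ex and CG15209 (r of 0.992, 0.986 and 0.985), which differ from it in size. While r2d2 varied 1.12-fold over the libraries, Fas2 varied 4.16-fold, ex 21.1-fold and CG15209 22.6-fold. AGO2 was closest to CG42365, CG9945 and CG8298 (0.985, 0.983 and 0.972), and AGO1 to CG16986 and vn (0.973 and 0.951). Dcr-1 was closest to CG6923, CG14650 and CG31357 (0.982, 0.977 and 0.975), and loqs to Smr, Pgant35A and BtbVII (0.985, 0.958 and 0.958). AGO1 had 24 genes with r of at least 0.9, loqs 25, Dcr-1 37, AGO2 48, r2d2 97, drosha 119 and pasha 127.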

How the data were processed

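Gene RNA values of 6 poly(A) libraries were deposited by the authors as RPKM, per the file headers. Per the submitters' processing notes, build dm3 was used, with Cufflinks 2.0.2, TopHat2 2.0.7, Bowtie2 2.0.0 and cutadapt; the sources used here do not give the annotation, the strand setting or how reads of overlapping genes were counted. Whether locus starts count from 0 or 1 is not stated. The 14145 entries were summed by gene name (161 repeat a name). The 4 Pol II libraries hold no gene values and were not used.

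Changes were log2((knock-down + 1)/(control + 1)), with fixed limits of 1 (2-fold) and 0.32 on the log2 scale in place of a test; printed ratios carry no pseudocount. Genes entered counts with a mean of at least 1 RPKM, and ranges and likeness with at least 5. Library totals were recovered from the transposable element values, as the totals that make all reads and lengths whole. They gave whole lengths for 41 of 41 low families, which is what the search sought and not a check of it. The search was also run on simulated data, with the outcome not given here. Named are the 8 genes, list genes past 2-fold, the 3 largest changes per list and the 3 genes most like each of the 8, of which 1 is not reported here; Socs36E, Vago, gw, trsn and zuc were added after their values were seen. Members and lists were chosen with earlier results of these data known. Tools were Python 3.11.15, pandas 2.3.3 and SciPy 1.17.1.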

Additional observations from a re-analysis of the deposited data

How the results depend on the processing

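No paired analysis was possible because each group holds 1 library. The counts of the 8 genes past 2-fold and past the smaller limit were the same with pseudocounts of 0.1 and 5 RPKM, after centring on the median gene and after scaling to the same upper quartile. Of the 40 changes, 1, Dcr-2 in HP1a, was past the smaller limit under each of these, at -0.46 after centring and -0.44 with the upper quartile, where it was -0.53 as deposited. Centring moved a change by at most 0.08 and upper quartile scaling by at most 0.09 on the log2 scale; 7 and 9 of the 40 changes then had the other sign. Summing by gene name or using the highest row gave the same values, as each of the 8 has 1 row.

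Counts of other lists moved in few cases. After centring, siRNA partners in HP1a were 2 above the smaller limit and 0 lower, against 1 and 3. For antiviral genes, a pseudocount of 0.1 RPKM gave 1 past 2-fold in Armi, against 0, and 1 above the smaller limit in Mael, against 0. Centring gave 1 above the smaller limit in Mael and 0 lower in Armi, against 0 and 1. Of the piRNA genes, 1 was past 2-fold in CG3893 with a pseudocount of 0.1 RPKM, against 0; it is the targeted gene CG3893, at a log2 change of -0.99 with a pseudocount of 1. Without the HP1a library, added after seeing the data, the range of Dcr-2 was 1.08-fold against 1.45-fold and that of drosha 1.08-fold against 1.18-fold. Centred shares of all genes were also added later. The share of all genes moved by over 1.5 times in the following cases. A filter of 5 RPKM put 2.07% past 2-fold in Mael, against 3.22%, and 2.43% below the smaller limit in Armi, against 4.08%. Using no filter put 11.6% below the smaller limit in HP1a, against 19.2%, and 7.67% in Mael, against 12.9%; past 2-fold it put 0.837% in Armi and in CG3893, 1.21% in Piwi, 2.05% in Mael and 3.58% in HP1a. With equal lengths assumed, intervals are widest in the low tier.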
